A study of Mus musculus with 18 samples.

Results

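Notch receptors, the DNA-binding factor they act through and genes known as Notch targets were followed in thymocytes of grafted mouse thymi. The set is 10 genes of the 22619 in the deposited count table, found by gene name: the receptors Notch1 and Notch3, the factor Rbpj, the repressors Hes1, Hes5, Hey1 and Heyl, the modulators Dtx1 and Nrarp, and Gpr83. Bulk RNA sequencing was done on thymocytes sorted from transplanted wild-type thymi after 28 days, and each library is labelled autonomy or turnover. In the thymus graft field, autonomy stands for a graft that maintains thymocyte production by itself, and turnover for one in which incoming progenitors replace the resident cells. The groups are DP autonomy (5 libraries, 5032273 to 20076446 counts), DP turnover (4 libraries, 6329039 to 24191044), DN3 autonomy (5 libraries, 7426834 to 21808512) and DN3 turnover (4 libraries, 12260295 to 14846126). DN3 is the stage at which thymocytes lack CD4 and CD8 and rearrange the T-cell receptor beta gene, and DP the later stage that carries both. Strain, sex and age of donors and hosts, and the animal behind each library, were not given in the labels. Tests therefore measure only the spread among these samples, which may be technical.

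Notch receptors on thymocytes are bound by Delta-like ligands on thymic epithelium and then cut, which frees an intracellular part that joins RBPJ and Mastermind-like proteins on DNA and turns on target genes. Early thymocytes depend on this signal for commitment to the T lineage and for survival up to the DN3 stage, and it is known to drop once the pre-T-cell receptor signals and cells move on to DP. Gain-of-function mutations of NOTCH1 are common in human T-cell acute lymphoblastic leukaemia.

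Promoters of 7 of the 10 genes were matched in a RefSeq table of mouse build GRCm38.p6: Notch1, Notch3, Rbpj, Hes5, Dtx1, Nrarp and Gpr83. Each window of 300 bases, from 250 before the start of the gene to 50 after it, was searched on both strands for TGGGAA, the core of the motif that RBPJ binds, and for GTGGGAA, a longer form that contains the core. The core is in 25.6% of 32851 mouse promoters and the longer form in 6.38%. The 250 bases before the start are shown for Hes5, Gpr83 and Nrarp, a classical target and genes that were higher in DN3 autonomy, from 5′ to 3′ on the strand of the gene, with matches to the core in capitals (TTCCCA is the core on the other strand).
Hes5, chr4:154960673-154960922, plus strand: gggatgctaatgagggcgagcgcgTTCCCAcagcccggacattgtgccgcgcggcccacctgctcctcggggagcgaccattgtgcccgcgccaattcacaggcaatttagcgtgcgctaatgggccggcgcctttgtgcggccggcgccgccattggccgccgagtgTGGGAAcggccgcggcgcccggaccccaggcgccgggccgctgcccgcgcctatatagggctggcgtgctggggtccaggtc
Gpr83, chr9:14859960-14860209, plus strand: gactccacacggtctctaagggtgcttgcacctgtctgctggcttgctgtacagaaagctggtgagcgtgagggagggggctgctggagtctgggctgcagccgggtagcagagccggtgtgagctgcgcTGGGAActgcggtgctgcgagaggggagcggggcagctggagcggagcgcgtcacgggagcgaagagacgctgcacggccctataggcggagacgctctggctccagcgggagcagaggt
Nrarp, chr2:25180508-25180757, plus strand: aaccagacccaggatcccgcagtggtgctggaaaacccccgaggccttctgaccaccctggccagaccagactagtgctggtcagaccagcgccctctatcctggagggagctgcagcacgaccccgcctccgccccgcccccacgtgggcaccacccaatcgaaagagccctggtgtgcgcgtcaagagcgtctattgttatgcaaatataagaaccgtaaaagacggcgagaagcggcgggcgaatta
Hes5 holds the longer form on both strands, beginning 226 and 83 bases before the start, and 0.256% of promoters hold 2 or more of it. Gpr83 holds a single core 120 bases before the start. Rbpj, not printed, has 2 listed promoters that overlap and together hold 2 cores. The letters were not found in the windows of Notch1, Notch3, Dtx1 or Nrarp. A match of letters is a description and does not show binding.

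In DN3 cells the Notch genes moved in both directions between the conditions. Gpr83, a G protein-coupled receptor studied in the brain and in regulatory T cells, was 91.1-fold higher in autonomy, and Dtx1, which encodes the ubiquitin ligase Deltex 1, was 2.46-fold higher. Heyl and Nrarp were higher too, while Hes1, a hairy-related repressor, was 1.84-fold lower. Neither receptor nor Rbpj passed the test. Of the 10 genes, 9 had enough reads to be tested and 5 were called by the edgeR quasi-likelihood test at an adjusted p under 0.05, 4 higher and 1 lower, where 14.9% of all 10766 genes tested were called, 6.53% as higher and 8.35% as lower. For the 4 genes called higher every autonomy library lay above every turnover library. For 1 gene, Hes5, which was not called, every autonomy library lay below, while the groups of Hes1 overlapped. Of all genes 18.3% had groups that did not overlap, 8.26% higher and 10.1% lower. Gpr83 and Heyl were scarce in turnover and passed the filter on low counts through autonomy, so their direction was largely set by that. The set was chosen with earlier results of these data known, so these counts support nothing about the set. In all of these tests on bulk RNA, fewer cells of a type and less RNA per cell cannot be told apart.

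**Figure D1:**
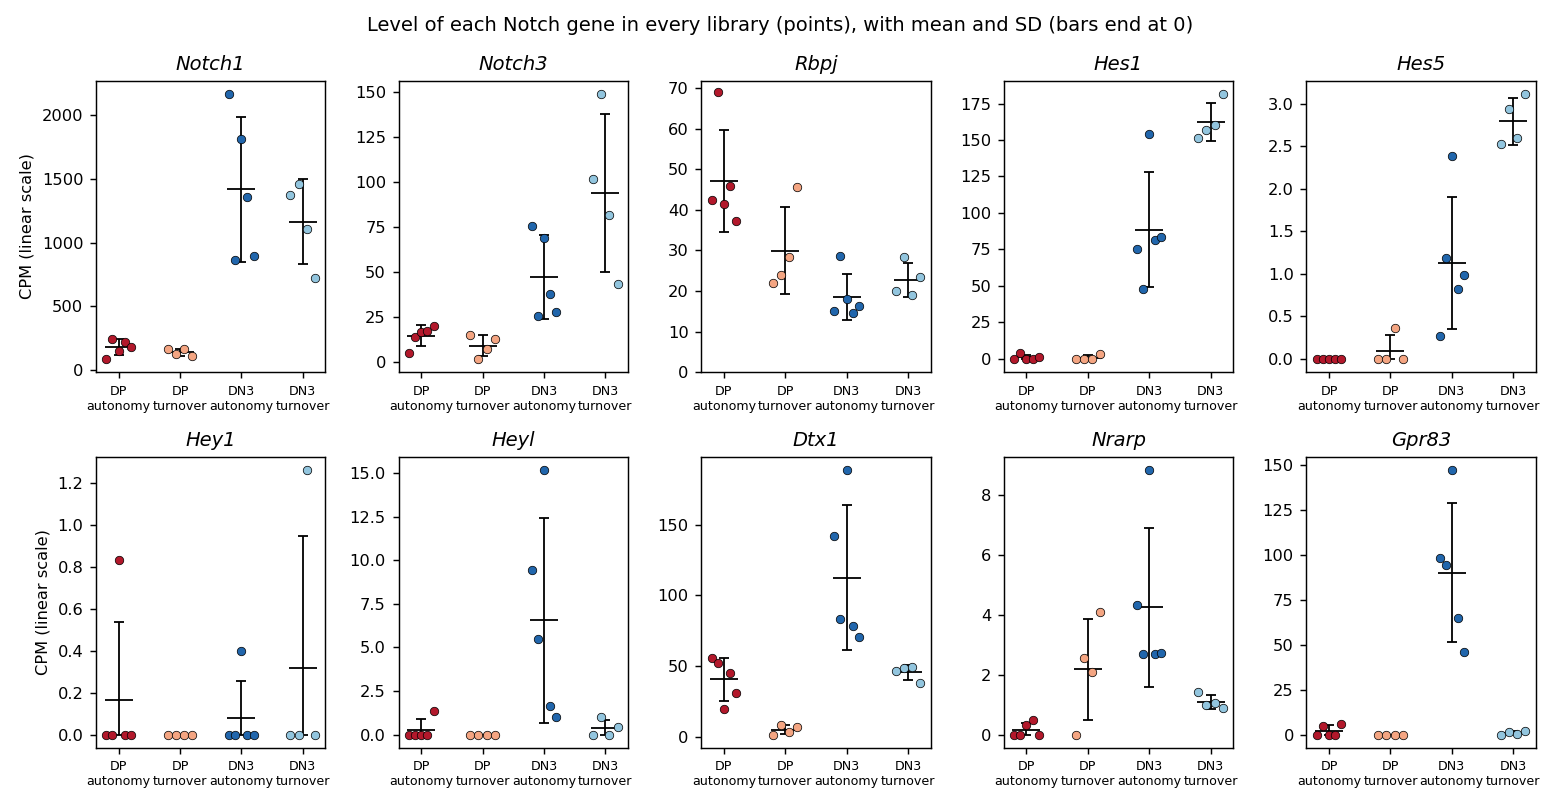
Level in CPM (linear axis that differs between panels) of each of the 10 genes in every library, with DP autonomy, DP turnover, DN3 autonomy and DN3 turnover from left to right. Points are libraries, the horizontal line is the mean and the bars are the SD, ended at 0. Gpr83 stands between 46.0 and 147 CPM in the 5 DN3 autonomy libraries and at or under 6.04 CPM in all others.

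Levels below are in CPM, depth-scaled read counts with TMM factors from all 18 libraries. Notch1 (ENSMUSG00000026923, GRCm38 chromosome 2, 26457903 to 26516663, minus strand) encodes the receptor that directs T-lineage commitment. It stood at 2166.2, 861, 1817, 1358 and 899 CPM in DN3 autonomy, against 1374, 1463, 1104 and 718 CPM in DN3 turnover. These ranges overlap widely, with a log2 change of 0.27 (SE 0.28, edgeR adjusted p = 0.539). Notch3 (ENSMUSG00000038146, chromosome 17, 32120820 to 32166852, minus strand) encodes another receptor found on immature thymocytes. It had 75.8, 25.8, 68.9, 37.9 and 28.0 CPM in DN3 autonomy, against 102, 149, 82.0 and 43.7 CPM in DN3 turnover. Only turnover library RP1141B lay within the autonomy range, and the log2 change was -1.0035 (SE 0.37, edgeR adjusted p = 0.0844). Without that library, which is described further on, it was -1.24 with an edgeR adjusted p of 0.0373. In the authors' deposited table the DESeq2 log2 change of Notch3 is -0.98 with an adjusted p of 0.0391.

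Rbpj (ENSMUSG00000039191, chromosome 5, 53466152 to 53657362, plus strand) encodes the factor through which all Notch receptors act on DNA. It had 15.1, 28.5, 17.97, 14.7 and 16.2 CPM in DN3 autonomy, against 19.9, 28.3, 19.0 and 23.3 CPM in DN3 turnover. Autonomy library RP1134 was the highest of all, and the groups overlapped (log2 -0.30, SE 0.26, edgeR adjusted p = 0.459). The annotation holds pseudogenes of Rbpj, which may share its reads, so that its level is uncertain.

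Hes1 (ENSMUSG00000022528, chromosome 16, 30064384 to 30067796, plus strand) encodes a repressor that Notch induces in DN3 cells. It had 75.5, 48.0, 154, 81.5 and 83.7 CPM in DN3 autonomy, against 151, 157, 160 and 181 CPM in DN3 turnover. Only autonomy library RP1135 reached the turnover range, and Hes1 fell by 0.88 on the log2 scale (SE 0.26, edgeR adjusted p = 0.0355). The fall kept its direction but missed the threshold without turnover library RP1140A (0.074), RP1140B (0.0615), RP1141A (0.0657) or RP1141B (0.0727), or without autonomy library RP1133 (0.0741), RP1137 (0.0844) or RP1138 (0.0751). It missed by more in the edgeR fit of all 18 libraries (0.547) and with turnover libraries of the same number summed (0.14). Hes5 (ENSMUSG00000048001, chromosome 4, 154960923 to 154962371, plus strand), a close relative whose promoter is shown above, was much scarcer. It had 0.265, 1.19, 2.38, 0.821 and 0.991 CPM in DN3 autonomy, against 2.53, 2.94, 2.60 and 3.11 CPM in DN3 turnover. Every autonomy library was below every turnover library, on 3 to 24 reads a library in autonomy and 32 to 42 in turnover, yet the test was not passed (log2 -1.31, SE 0.64, edgeR adjusted p = 0.179).

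Heyl (ENSMUSG00000032744, chromosome 4, 123233556 to 123249875, plus strand) belongs to the Hey branch of hairy-related repressors, best known from vessels and muscle. It had 9.47, 5.50, 15.2, 1.64 and 0.991 CPM in DN3 autonomy, against 0, 0.979, 0 and 0.41 CPM in DN3 turnover. The groups did not overlap, though autonomy library RP1138 (19 reads) and turnover library RP1140B (14 reads) lay close together. Heyl was higher in autonomy by log2 4.18 (SE 1.15, edgeR adjusted p = 0.0275). The call was lost without turnover library RP1140A (0.0686), RP1141A (0.0523) or RP1141B (0.0536), or without autonomy library RP1133 (0.0508) or RP1135 (0.0545), and the change was log2 5.52 without turnover library RP1140B and 3.60 without autonomy library RP1135. The call was also lost with voom (0.103), in the edgeR fit of all 18 libraries (0.147) and with turnover libraries of the same number summed (0.0769). The summed level of 8 markers of endothelium, pericytes and fibroblasts was 45.5 to 66.7 CPM in DN3 autonomy against 89.0 to 111 CPM in DN3 turnover, nearly all of it Pecam1, and its part in the Heyl result was not tested. Cdh5, Rgs5, Col3a1 and Pdgfra were at 0 in DN3 autonomy, and Rgs5, Col1a1 and Pdgfra in DN3 turnover, while Col1a1 reached 1.78 CPM in DN3 autonomy. Hey1 (ENSMUSG00000040289, chromosome 3, 8663359 to 8667256, minus strand), the other Hey gene of the set, had 4 reads in autonomy library RP1135 and 18 in turnover library RP1141A and none in the other DN3 libraries. It was too scarce to be tested in any comparison.

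Dtx1 (ENSMUSG00000029603, chromosome 5, 120680202 to 120711927, minus strand) is a Notch target whose product binds the intracellular part of the receptor and modulates its signal. It had 142, 83.3, 189, 78.3 and 70.6 CPM in DN3 autonomy, against 46.2, 48.9, 48.9 and 38.0 CPM in DN3 turnover. The groups were apart, and Dtx1 rose by log2 1.30 (SE 0.28, edgeR adjusted p = 0.0099), a call kept without each library in turn. With turnover libraries that share a number summed, RP1140A with RP1140B and RP1141A with RP1141B, the edgeR adjusted p was 0.0861. Nrarp (ENSMUSG00000078202, chromosome 2, 25180758 to 25183339, plus strand) encodes a small ankyrin-repeat protein that Notch induces and that dampens the signal by destabilising the receptor's intracellular part. It had 4.33, 2.67, 8.83, 2.70 and 2.71 CPM in DN3 autonomy, against 1.42, 0.979, 1.05 and 0.901 CPM in DN3 turnover. The groups were apart at low levels, 18 to 89 reads a library in autonomy and 11 to 18 in turnover, and Nrarp rose by log2 1.95 (SE 0.58, edgeR adjusted p = 0.0375). This call was lost without any of the 4 turnover libraries (RP1140A 0.0744, RP1140B 0.0789, RP1141A 0.0739, RP1141B 0.0766) and without autonomy library RP1133 (0.0631), RP1135 (0.0915) or RP1137 (0.0528). It was also lost in the edgeR fit of all 18 libraries (0.301) and with the turnover libraries summed as for Dtx1 (0.153). The same held with voom (0.0659), without the filter on low counts (0.0589) and with library totals as the only scaling (0.0515). The antisense gene Gm38287 shares 2051 exon bases with Nrarp, and since use of strand in the counting is not given, reads of the pair cannot be told apart.

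Gpr83 (ENSMUSG00000031932, chromosome 9, 14860210 to 14870789, plus strand) had 98.0, 94.6, 147, 65.1 and 45.99 CPM in DN3 autonomy, against 0, 1.54, 0.491 and 1.88 CPM in DN3 turnover. The groups were far apart: 555 to 1484 reads a library in autonomy and 0 to 23 in turnover, with a log2 change of 6.51 (SE 0.64, edgeR adjusted p = 0.000131). The call held in all 16 other settings tried, with an edgeR, DESeq2 or voom adjusted p of at most 0.0044. Foxp3, the defining gene of regulatory T cells, in which Gpr83 is also known, was at 0 to 1.19 CPM in DN3 autonomy and 0 to 0.351 CPM in DN3 turnover. The summed level of 4 markers of those cells was 19.8 to 44.1 CPM in DN3 autonomy, against 37.7 to 76.3 CPM in DN3 turnover.

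**Figure D2:**
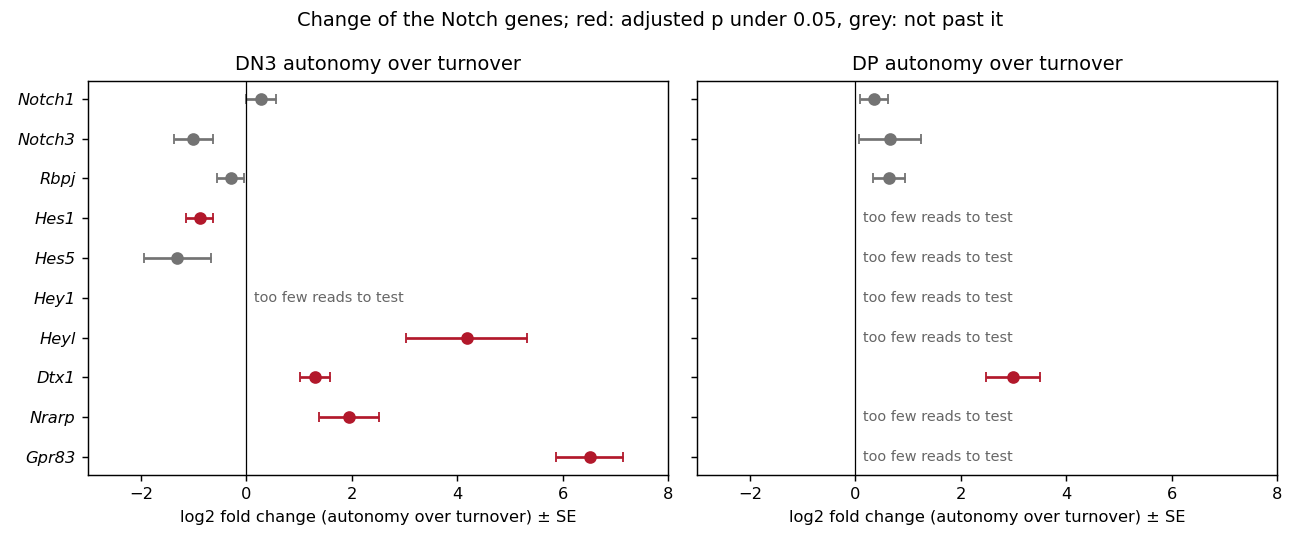
Log2 fold change of autonomy over turnover with its SE (horizontal axis) for each gene in DN3 cells (left) and DP cells (right), from edgeR. Red points have an adjusted p under 0.05, grey points do not. Gpr83 in DN3 cells (6.51) and Dtx1 in DP cells (2.99) are the farthest from 0 in their panels, and 6 genes had too few reads in DP cells.

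Since the targets moved in opposite directions, reads were also set against each other within each DN3 library, where scaling between libraries has no part. These ratios were chosen after the values were seen and carry no test. Dtx1 had 1.88, 1.74, 1.23, 0.961 and 0.842 reads per Hes1 read in DN3 autonomy, against 0.306, 0.312, 0.306 and 0.21 in DN3 turnover. Notch3 had 0.0279 to 0.0379 reads per Notch1 read in DN3 autonomy, against 0.0608 to 0.102 in DN3 turnover. Neither ratio overlapped between the conditions, although Notch1 and Notch3 levels by themselves did. Hes1 reads per Notch1 read were 0.0349 to 0.0932 in DN3 autonomy and 0.107 to 0.252 in DN3 turnover, and Dtx1 reads per Notch1 read were 0.0577 to 0.104 in DN3 autonomy and 0.0334 to 0.0529 in DN3 turnover. These ratios restate the counts given above and add no separate evidence. How many other pairs of genes have ratios that separate the same libraries was not counted.

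**Figure D3:**
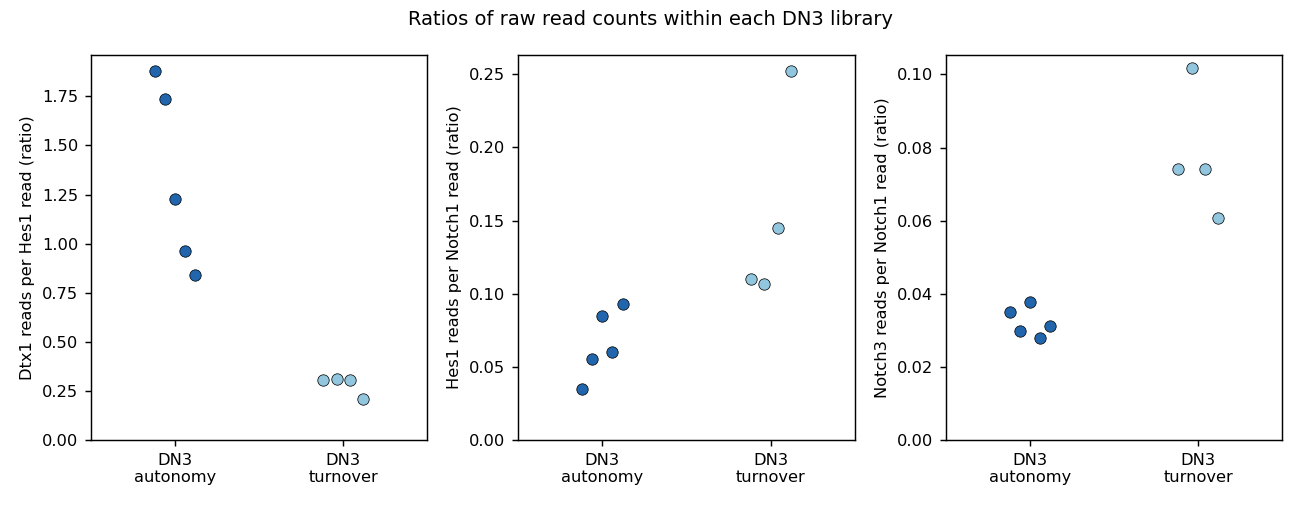
Ratio of raw reads of 2 genes within each DN3 library (vertical axes, no unit), autonomy on the left and turnover on the right of each panel, 1 point per library. Dtx1 reads per Hes1 read run from 0.842 to 1.88 in autonomy and from 0.21 to 0.312 in turnover, and the other panels show Hes1 and Notch3 reads per Notch1 read, both lower in autonomy.

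The 5 markers of the DP stage summed to 5956 to 6807 CPM in DP autonomy, 5521 to 5754 in DP turnover, 197 to 321 in DN3 autonomy and 91.1 to 1384 in DN3 turnover, the last value from a single library. DN3 turnover library RP1141B held 135 CPM of Cd4, 385 of Cd8a and 615 of Cd8b1, where the other 3 turnover libraries held at most 1.96, 7.34 and 24.7 CPM. Without it the calls of Gpr83 and Dtx1 and the direction of all 9 tested genes were kept, and the calls of Hes1, Heyl and Nrarp were lost as given above. Summed marker levels of other cells were lower in DN3 autonomy than in DN3 turnover, each carried mainly by 1 gene of its list. Gamma-delta T-cell markers summed to 77.4 to 168 CPM in DN3 autonomy, against 260 to 392 CPM in DN3 turnover, mostly Trdc, with Il17a at 0 in both and Maf at 0 in autonomy. NK-cell markers summed to 6.09 to 65.2 CPM in DN3 autonomy, against 113 to 162 CPM in DN3 turnover, mostly Nkg7, while Klrb1c was at 0 in autonomy, Ncr1 at 0 in turnover and Prf1 at up to 2.97 CPM in autonomy and up to 2.21 CPM in turnover. Of the mast-cell markers only Cpa3 had reads, 2.87 to 27.2 CPM in DN3 autonomy against 50.4 to 120 CPM in DN3 turnover, and Mcpt4 and Cma1 were at 0 in both. Thymic epithelium markers summed to 28.8 to 83.3 CPM in DN3 autonomy, against 90.0 to 113 CPM in DN3 turnover, mostly Epcam, with Krt5 at 0 in both and Foxn1 at 0 in turnover. Within autonomy the highest library of each of these lists was RP1135, which was also the highest for Hes1, Hes5, Heyl, Dtx1, Nrarp and Gpr83. The 5 DN3 markers summed to 2172 to 4086 CPM in DN3 autonomy, against 4410 to 5268 CPM in DN3 turnover, mostly Dntt. Dntt stood at 1488 to 2495 CPM in DN3 autonomy, against 3275 to 4185 CPM in DN3 turnover. Of these 5 markers 0 were called higher and 1 lower in DN3 autonomy by edgeR. RP1135 had the highest sum of the 5 DN3 markers in DN3 autonomy as well (4086 CPM). It was highest for Il2ra, Ptcra and Dntt, while Rag1 was highest in RP1134 and Cd3e in RP1133. The part of these cells in the Notch results was not tested.

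The rest of the pathway was read from lists of Notch genes, some of which hold members of the set. Among co-regulators that work with RBPJ, 2 of 22 tested genes fell in DN3 autonomy, the acetyltransferase Crebbp (36.0 ± 7.80 CPM in autonomy and 74.9 ± 11.7 CPM in turnover, SD, n = 5 and 4; log2 -1.06, SE 0.19, edgeR adjusted p = 0.00411) and the histone demethylase Kdm5a (log2 -0.78, SE 0.21, edgeR adjusted p = 0.0272). That share is close to the 8.35% of all tested genes called lower, and the median of the list was -0.46, against -0.05 over all genes. Kdm5a missed the threshold without turnover library RP1140A (0.0791) or RP1141B (0.0678) or autonomy library RP1133 (0.0643), RP1137 (0.0778) or RP1138 (0.0694), and with turnover libraries of the same number summed (0.0998).

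Ubiquitin ligases and trafficking factors of Notch went both ways in DN3 cells, with 2 of 13 tested genes higher, Dtx1 and Nrarp, and 2 lower, where 6.53% of all genes were called higher and 8.35% lower. The calls of Dtx1 and Nrarp are those of the set given above and add no separate evidence. Dtx3, another Deltex gene, fell to 16.7 ± 6.96 CPM in autonomy, against 69.5 ± 9.46 CPM in turnover (SD, n = 5 and 4; log2 -2.07, SE 0.28, edgeR adjusted p = 0.000851). Mib2, a ligase that acts on Notch ligands, fell to 11.7 ± 5.08 CPM in autonomy, against 42.5 ± 13.2 CPM in turnover (SD, n = 5 and 4; log2 -1.87, SE 0.31, edgeR adjusted p = 0.00268). Both falls kept their call without each library in turn, so that Dtx1 and Dtx3 moved in opposite directions in the same cells. None of 14 tested genes for glycosylation and cleavage of the receptor passed, from the Fringe enzymes to the gamma-secretase subunits, with 14.9% of all genes called. Of 5 ligand genes only Jag2, named here after its values were seen, had enough reads: it fell to 1.43 ± 1.30 CPM in autonomy, against 5.41 ± 0.82 CPM in turnover (SD, n = 5 and 4; log2 -1.94, SE 0.60, edgeR adjusted p = 0.0454). Jag2 missed the threshold without each of turnover libraries RP1140A (0.0999), RP1140B (0.0737), RP1141A (0.103) and RP1141B (0.07) and autonomy libraries RP1133 (0.0923), RP1135 (0.0687), RP1137 (0.105) and RP1138 (0.0986). It also missed in the edgeR fit of all 18 libraries (0.164), with summed turnover libraries (0.161) and without the filter on low counts (0.0605).

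T-lineage genes known to respond to Notch split likewise: of 20 tested in DN3 cells 5 rose, 2 fell and 13 did not pass, where 6.53% of all tested genes were called higher and 8.35% lower. The median log2 of the list was -0.17, against -0.05 over all genes. The list holds members of the set counted above and was chosen with earlier results of these data known. These counts therefore support nothing about the list. Those that rose were Gpr83, Dtx1 and Nrarp of the set, the D-type cyclin Ccnd3 (683 ± 152 CPM in autonomy and 334 ± 68.2 CPM in turnover, SD, n = 5 and 4; log2 1.02, SE 0.19, edgeR adjusted p = 0.0049) and the transcription factor Lef1 (log2 0.76, SE 0.15, edgeR adjusted p = 0.00542). Besides Hes1, the commitment factor Bcl11b fell to 166 ± 22.7 CPM in autonomy, against 342 ± 110 CPM in turnover (SD, n = 5 and 4; log2 -1.05, SE 0.19, edgeR adjusted p = 0.00422). Il2ra, which encodes CD25, did not pass (log2 -0.10, SE 0.26, edgeR unadjusted p = 0.708), nor did Ptcra, the pre-T-cell receptor alpha chain (log2 0.64, SE 0.20, edgeR adjusted p = 0.0521).

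**Figure D4:**
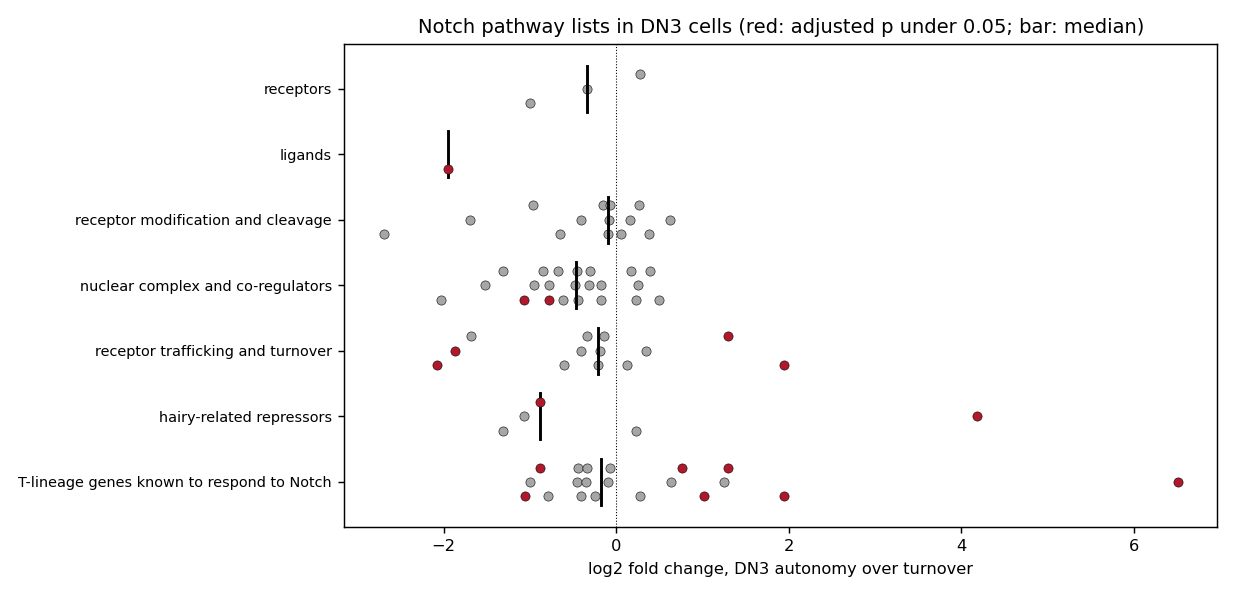
Log2 fold change of DN3 autonomy over turnover (horizontal axis) for each tested gene of 7 Notch pathway lists (rows), some genes standing in more than 1 list. Red points have an edgeR adjusted p under 0.05, grey points do not, vertical offsets only separate the points, and the black bar is the median of the list. The point at 6.51 is Gpr83 and the point at 4.18 is Heyl.

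In DP cells most of the Notch genes were too scarce to test or did not pass, and Dtx1 was the exception. Dtx1 was 7.96-fold higher in autonomy, the only gene called of the 4 with enough reads to be tested, where 1.72% of all 10339 genes tested were called, 0.861% as higher and 0.861% as lower. It had 55.3, 52.2, 19.2, 45.2 and 30.5 CPM in DP autonomy, against 1.46, 8.07, 3.37 and 6.90 CPM in DP turnover. The groups were far apart, as they were, by not overlapping, for 8.18% of all genes tested, 4.22% higher and 3.97% lower, and the change was log2 2.99 (SE 0.51, edgeR adjusted p = 0.016). The call was kept without each library in turn, and the edgeR adjusted p was 0.0776 with turnover libraries that share a number summed. In the authors' deposited table the log2 change of Dtx1 in DP cells is 3.00 with an adjusted p of 2.77e-07.

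The receptors and Rbpj did not pass in DP cells. Notch1 had 86.9, 244, 151, 221 and 183 CPM in DP autonomy, against 163, 121, 162 and 106 CPM in DP turnover (log2 0.35, SE 0.26, edgeR adjusted p = 0.544). Notch3 had 5.30, 13.9, 16.5, 17.5 and 20.2 CPM in DP autonomy, against 14.9, 1.90, 7.41 and 13.0 CPM in DP turnover (log2 0.66, SE 0.59, edgeR adjusted p = 0.641). For both receptors the autonomy range covered most of the turnover range. Rbpj had 42.4, 69.0, 41.4, 45.8 and 37.3 CPM in DP autonomy, against 21.99, 23.9, 28.4 and 45.6 CPM in DP turnover (log2 0.64, SE 0.30, edgeR adjusted p = 0.295), where only turnover library RP1141B reached the autonomy range.

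The other 6 genes had too few reads to be tested in DP cells and are given as counts. Gpr83 had 44 and 40 reads in autonomy libraries RP1135 and RP1138 and 0 in the other 3, and 0 in all 4 turnover libraries. A count of 0 allows 3 reads in each turnover library, and its mean of 2.14 CPM in DP autonomy (SD 2.97) was 8.17 times that level. The ratio covers counting error in turnover only. The groups overlapped, so it is not a least change. Hes1 had 35, 10 and 1 reads in DP autonomy libraries RP1135, RP1138 and RP1133 and none in the other 2, and 33 reads in DP turnover library RP1141B and none in the other 3. Each gene was thus carried by a few libraries of a group. Nrarp went the other way from Dtx1, with 3 and 10 reads in DP autonomy libraries RP1136 and RP1137 and none in the other 3, against 67, 34 and 39 reads in DP turnover libraries RP1140B, RP1141A and RP1141B and none in RP1140A. Hes5 was at 0 in all 5 DP autonomy libraries and had 6 reads in a single DP turnover library, while Hey1 and Heyl had reads in 1 DP autonomy library each and 0 in all DP turnover libraries.

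Markers of the DN3 stage went both ways between the DP groups. The sum of all 5 was 3631 to 4044 CPM in DP autonomy, against 4429 to 4695 CPM in DP turnover, most of it Dntt, which encodes the enzyme that adds bases at receptor gene joints. Dntt stood at 2573 to 2992 CPM in DP autonomy, against 3439 to 3709 CPM in DP turnover, and of the 5 markers 0 were called higher and 1 lower by edgeR. Il2ra was at 17.2 to 41.2 CPM in DP autonomy, against 1.26 to 14.8 CPM in DP turnover (log2 1.92, SE 0.58, edgeR adjusted p = 0.107). Ptcra was at 57.4 to 128 CPM in DP autonomy, against 36.7 to 49.3 CPM in DP turnover (log2 0.92, SE 0.25, edgeR adjusted p = 0.0835). Neither of these 2 overlapped between the conditions, nor passed the test. In autonomy the mean DP level of Dtx1 was 36.0% of its DN3 level, that of Notch3 31.1%, of Ptcra 19.9%, of Notch1 12.5%, of Il2ra 7.59%, of Gpr83 2.38% and of Hes1 1.22%. In turnover the same shares were 16.3% for Ptcra, 11.8% for Notch1, 10.9% for Dtx1, 9.87% for Notch3, 1.85% for Il2ra and 0.532% for Hes1, with Gpr83 at 0 in DP cells. The summed level of 6 macrophage markers was 16.2 to 125 CPM in DP autonomy, highest in library RP1133 and with Adgre1 at 0, against 2.47 to 22.7 CPM in DP turnover, and its part in the Dtx1 result was not tested. Elsewhere in the pathway 1 gene outside the set was called in DP cells: Snw1, a co-regulator of RBPJ and splicing factor, rose to 485 ± 67.6 CPM in autonomy, against 295 ± 22.3 CPM in turnover (SD, n = 5 and 4; log2 0.71, SE 0.13, edgeR adjusted p = 0.0197). It was 1 of 22 tested co-regulators, where 0.861% of all genes tested were called higher. Snw1 missed the threshold without turnover library RP1140B (0.079) or RP1141A (0.0556) or autonomy library RP1133 (0.0515), and with turnover libraries of the same number summed (0.122).

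Whether the conditions differed more in one cell type than in the other was asked of the difference itself, the autonomy effect in DP cells minus that in DN3 cells. Nrarp, higher with autonomy in DN3 cells and scarcer with it in DP cells, was the only gene of the 9 tested to pass (log2 -5.48, SE 1.61, edgeR adjusted p = 0.0479), where 5.49% of all 11521 genes tested were called, 2.88% as higher and 2.61% as lower. It rests on 13 reads in all DP autonomy libraries and 140 in all DP turnover libraries. The call was kept without DP turnover library RP1140A or DP autonomy library RP1137 (log2 -6.43 without RP1137) and lost without each of the other 16 libraries, with adjusted p from 0.0532 to 0.103. Dtx1 had a larger effect in DP cells by log2 1.69 (SE 0.55) and did not pass (edgeR adjusted p = 0.0811). It passed without DN3 autonomy library RP1135 (0.0423), DP turnover library RP1140B (0.0457) or DP autonomy library RP1136 (0.0477). Notch3 (log2 1.69, SE 0.70, edgeR adjusted p = 0.176), Rbpj (0.95, SE 0.40, 0.18), Notch1 (0.08, SE 0.42, 0.951) and Hes1 (1.38, SE 1.42, 0.646) did not pass. Hes1 rests on DP turnover library RP1141B, the only one of its group with Hes1 reads, without which no difference is defined, and on DP autonomy library RP1135, without which it was -0.36. Hes5, Heyl and Gpr83 did not pass either, and with a group at 0 they have no defined difference. In the pathway lists, members of the set included, 2 of 22 tested co-regulators were called higher for this difference. Of 15 trafficking genes 2 were called higher and 1 lower, and of 20 T-lineage genes 1 higher and 2 lower. No gene of the other lists was called, and over all genes the shares were 2.88% and 2.61%. Outside the set 6 genes of the pathway lists passed. For the 4 that were lower with autonomy in DN3 cells the difference was positive: Dtx3 (log2 2.20, SE 0.37, edgeR adjusted p = 0.00137), Kdm5a (log2 1.22, SE 0.25, edgeR adjusted p = 0.00828), Mib2 (log2 1.81, SE 0.46, edgeR adjusted p = 0.0226) and Crebbp (log2 0.998, SE 0.29, edgeR adjusted p = 0.0453). None of these 4 was called in DP cells. Means in DP autonomy and DP turnover were 62.3 and 56.3 CPM for Dtx3, and 33.1 and 34.1 for Mib2. They were 126 and 131 CPM for Crebbp, and 563 and 413 for Kdm5a. Mib2 missed the threshold without DN3 turnover library RP1140A (0.0562). It also missed with turnover libraries of the same number summed (0.174) and with the library number as a block (0.142). Crebbp missed it in 19 of 25 other settings, with edgeR adjusted p up to 0.267. Kdm5a missed it with turnover libraries of the same number summed (0.0569). Il7r, the interleukin 7 receptor alpha chain, passed as well (edgeR adjusted p = 0.00293), with no reads in DP turnover and so no defined size. It missed the threshold with voom (0.0612). For Ccnd3, higher with autonomy in DN3 cells, the difference was negative (log2 -1.20, SE 0.23, edgeR adjusted p = 0.00432). Its means were 1011 CPM in DP autonomy and 1138 CPM in DP turnover, and it was not called in DP cells. With turnover libraries of the same number summed the difference for Ccnd3 missed the threshold (0.0511).

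Between the stages, DP cells held far fewer transcripts of most Notch genes than DN3 cells in both conditions. In autonomy all 9 tested genes were called, 8 lower and 1 higher in DP cells, where 49.0% of all 11521 genes were called in that comparison, 23.7% as higher and 25.2% as lower. The DP and DN3 libraries of autonomy did not overlap for 7 genes that were lower and 1 that was higher, against 37.9% of all genes, 17.1% higher and 20.8% lower. In turnover 6 of the same 9 were called, all lower in DP cells, where 34.9% of all genes were called, 15.8% as higher and 19.1% as lower. There 5 genes were lower without overlap, against 34.7% of all genes, 15.1% higher and 19.6% lower. Of the 9 genes, 5 (Hes1, Hes5, Heyl, Nrarp and Gpr83) had too few reads to be tested among DP libraries alone and entered through their DN3 reads, so that a lower level in DP cells was largely set for them and the counts support nothing about the set. The comparisons share no libraries but use a common estimate of spread.

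Notch1 was 8.01-fold lower in DP cells in autonomy (177 ± 61.7 CPM in DP and 1420 ± 571 CPM in DN3, SD, n = 5 each; log2 -3.002, SE 0.30, edgeR adjusted p = 9.11e-08). In turnover it was 8.46-fold lower (138 ± 28.9 CPM in DP and 1165 ± 335 CPM in DN3, SD, n = 4 each; log2 -3.08, SE 0.34, edgeR adjusted p = 1.13e-06). The drop of the main receptor in autonomy and in turnover differed by log2 0.08 (SE 0.42), the difference tested above. Notch3 was lower by log2 -1.68 (SE 0.47, edgeR adjusted p = 0.00587) in autonomy and -3.37 (SE 0.56, edgeR adjusted p = 0.000122) in turnover. Rbpj ran against the rest: in autonomy it was 2.56-fold higher in DP cells, 37.3 to 69.0 CPM in DP against 14.7 to 28.5 CPM in DN3 (log2 1.35, SE 0.27, edgeR adjusted p = 0.000306), and in turnover its log2 change of 0.41 did not pass (SE 0.29, edgeR adjusted p = 0.311).

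Hes1 was close to absent from DP cells. It was at 1.08 ± 1.602 CPM in DP autonomy, against 88.5 ± 39.3 CPM in DN3 autonomy (SD, n = 5 each; log2 -6.42, SE 0.99, edgeR adjusted p = 2.24e-05). In turnover it was at 0.863 ± 1.73 CPM in DP cells, against 162 ± 13.2 CPM in DN3 cells (SD, n = 4 each; log2 -7.80, SE 1.17, edgeR adjusted p = 3.7e-05). Without DP autonomy library RP1135 the change in autonomy was log2 -8.17, without DP turnover library RP1140B that in turnover was -7.15, and without DP turnover library RP1141B no DP turnover library held a Hes1 read. Hes5 had no reads in DP autonomy and was called lower there (edgeR adjusted p = 0.00178). Its DN3 autonomy mean was 3.15 times the level that 3 reads in each DP autonomy library would give. Hes5 was lower in DP turnover by log2 -4.67 (SE 1.44, edgeR adjusted p = 0.0162), a value that rests on the 6 reads of DP turnover library RP1141A, without which the group is at 0. This call was lost with turnover libraries of the same number summed (0.173). Heyl was lower in DP autonomy (log2 -4.65, SE 1.65, edgeR adjusted p = 0.0258), but not without DN3 autonomy library RP1135 (0.0676) or with the library number as a block (0.0709). The Heyl value rests on 9 reads in DP library RP1138, without which the group is at 0. In turnover Heyl was near 0 in both cell types and did not pass (edgeR adjusted p = 0.0684), except without DP autonomy library RP1138 (0.0421).

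Dtx1 was lower in DP cells under both conditions, by a factor of 2.78 in autonomy and 8.96 in turnover. It was at 40.5 ± 15.3 CPM in DP autonomy, against 113 ± 51.1 CPM in DN3 autonomy (SD, n = 5 each; log2 -1.48, SE 0.37, edgeR adjusted p = 0.00234), and at 4.95 ± 3.07 CPM in DP turnover, against 45.5 ± 5.16 CPM in DN3 turnover (SD, n = 4 each; log2 -3.16, SE 0.44, edgeR adjusted p = 1.93e-05). Gpr83 was lower in DP autonomy by log2 -5.44 (SE 1.11, edgeR adjusted p = 0.000595), and -6.04 without DP autonomy library RP1135 or -6.27 without RP1138, the libraries that held its reads. In DP turnover Gpr83 had no reads and was called lower (edgeR adjusted p = 0.0362), though the groups overlapped. Its DN3 turnover mean was 3.73 times the level that 3 reads in each DP turnover library would give. The call was lost without DN3 turnover library RP1140B (0.0685) or RP1141B (0.0807) or any DP turnover library (0.0541 to 0.0901). It was also lost with voom (0.175) and with turnover libraries of the same number summed (0.0938). Nrarp was lower in DP autonomy by log2 -4.48 (SE 1.17, edgeR adjusted p = 0.00305), and -5.43 without DP autonomy library RP1137. In turnover Nrarp did not pass (log2 0.9996, SE 1.12, edgeR adjusted p = 0.526), with 3 of 4 DP libraries above all 4 DN3 libraries and the last at 0.

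**Figure D5:**
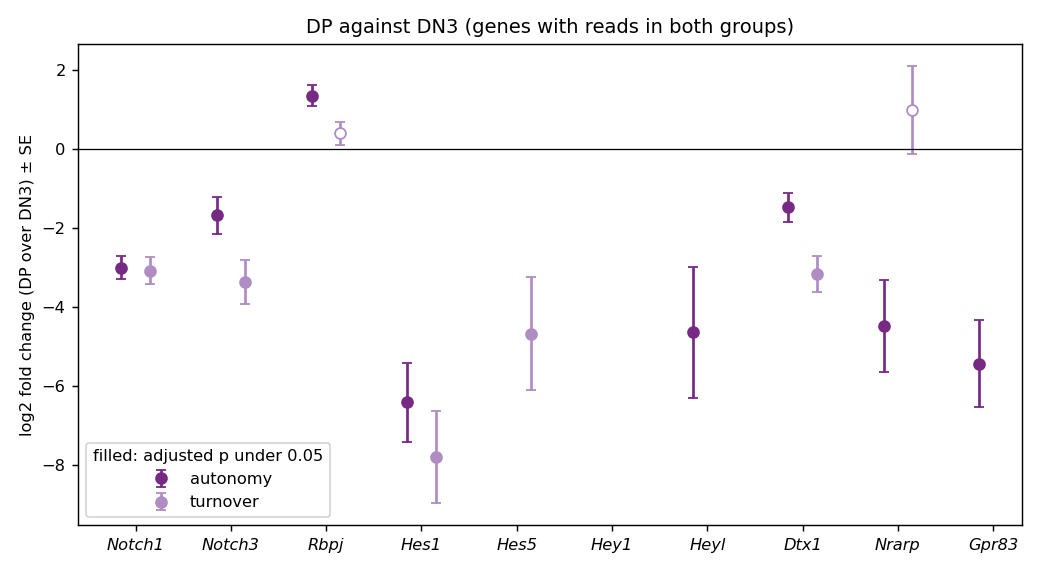
Log2 fold change of DP over DN3 with its SE (vertical axis) for each gene, autonomy in dark and turnover in light purple. Filled points have an edgeR adjusted p under 0.05, and genes with no reads in a group or too few reads are left blank. Rbpj is the gene above 0 in autonomy (1.35), and Notch1 lies at -3.002 in autonomy and -3.08 in turnover.

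Levels per kilobase of exon allow genes to be set against each other roughly. The length is that of all annotated exons of a gene joined, so a gene whose transcripts use only part of them is understated. In DN3 autonomy Notch1 led with 99.8 ± 40.1 CPM per kb, then Hes1 with 43.5 ± 19.3, Dtx1 with 21.4 ± 9.70, Gpr83 with 17.7 ± 7.55 and Notch3 with 5.85 ± 2.90 (SD, n = 5). There the SD ranges of Notch1 and Hes1 overlapped, as did those of Hes1 and Dtx1, and Dtx1 and Gpr83 lay within each other's SD. Nrarp (1.65 ± 1.03), Rbpj (1.45 ± 0.45), Heyl (1.28 ± 1.15) and Hes5 (0.8287 ± 0.57 CPM per kb) followed, with the SD ranges of neighbours overlapping, and Hey1 was last. In DN3 turnover Notch1 with 81.9 ± 23.5 CPM per kb and Hes1 with 79.7 ± 6.49 could not be ordered, followed by Notch3 with 11.6 ± 5.41 and Dtx1 with 8.64 ± 0.98 (SD, n = 4), whose SDs overlap. Hes5 and Rbpj came next at 2.05 and 1.78 CPM per kb, and Gpr83 was at 0.192 ± 0.17. In DP autonomy the order of the means was Notch1 (12.4 ± 4.33), Dtx1 (7.68 ± 2.89), Rbpj (3.70 ± 0.99) and Notch3 (1.82 ± 0.71), and in DP turnover Notch1 (9.68 ± 2.03), Rbpj (2.35 ± 0.84), Notch3 (1.15 ± 0.72) and Dtx1 (0.939 ± 0.58 CPM per kb, SD, n = 5 and 4). The SD ranges of Notch1 and Dtx1 overlapped in DP autonomy. In DP turnover those of Rbpj and Notch3 overlapped, and Notch3, Dtx1 and Nrarp (0.844 ± 0.65) could not be ordered. The genes below those listed were under 1 CPM per kb.

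For members above 10 CPM in a group, the genes with the most similar pattern over the 18 libraries were found by the root mean square (RMS) difference of centred log2 CPM, among 8571 genes, as a description. For Gpr83 they were Adam19 (RMS 1.74 log2 units), Ifi211 (1.76) and Necab1 (1.85), each above 20 CPM on average in DN3 autonomy and under 1.5 CPM in every other group. Adam19 had 22.2 CPM in DN3 autonomy and 0 in DN3 turnover. Nearest to Dtx1 were Akr1c13 (0.945), Ptcra (0.978) and Slc5a9 (0.979), and nearest to Notch1 were Tagln2 (0.452), Fbl (0.46) and Rcl1 (0.49). Notch3 was nearest to Milr1 (0.773), Cdk6 (0.805) and Rogdi (0.809), Rbpj to Ercc5 (0.264), Ppil4 (0.291) and Rbbp6 (0.292), and Hes1 to Arhgef10l (1.27), Acot5 (1.47) and Mpzl2 (1.505). The patterns of Gpr83 and Hes1 spread more over the libraries themselves, by an RMS of 3.79 and 4.205, against 0.62 for Rbpj.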

How the data were processed

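DN3 and DP thymocytes were sorted into lysis buffer and RNA was taken up on oligo-dT beads for Pico Nextera libraries, per the labels' protocols. FastQC, HISAT2, featureCounts and DESeq2 are named, with builds mm10 and GRCm38, per the submitters' processing notes. Versions, settings and use of strand count as not given in the sources used here. A deposited table holds raw whole-number counts per Ensembl gene for 18 libraries. The authors also deposited DESeq2 tables with log2 fold changes, standard errors and p-values, per the file headers, used only where named. Those tables' mean normalized signal and Wald score per gene, as deposited by the authors, were not used. Of 22619 identifiers 22601 matched GENCODE M21.

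Counts were tested in R 4.3.3 with edgeR 4.0.16 (glmQLFit, glmQLFTest, TMM factors, filterByExpr) and Benjamini-Hochberg adjustment over all genes tested, threshold 0.05. Autonomy was compared with turnover in the 9 libraries of each cell type. The difference of the effects and DP against DN3 came from 1 model of all 18 libraries. SEs are the log2 coefficient over the square root of F. Alternatives were other scaling, no filter, DESeq2 1.42.0, voom in limma 3.58.1, summed libraries, other samples in the fit, the library number as a block, and each library left out. The scripts were tested on simulated counts. Members are named in every comparison, and list genes by a rule: up to 4 per direction, past the threshold, with at least 10 CPM in the higher group. Members and lists were chosen with earlier results of these data known. PCR copies of a molecule are counted separately, and limits from a count of 0 therefore cover counting error alone. Among pairs of libraries within a group the lowest correlation of log2 CPM was 0.882.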

Additional observations from a re-analysis of the deposited data

Results flagged for a closer look

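Single libraries stood apart from the rest of their group by the gap to the nearest library relative to the range of the group (Dixon's test) in 9 of 36 gene and group combinations, and chance flags about 1 in 20 groups. Most are low counts in 1 library. Rbpj was highest in DN3 autonomy library RP1134 (28.5 CPM) and in DP autonomy library RP1135 (69.0 CPM). Nrarp was highest in DN3 autonomy library RP1135 (8.83 CPM), and Hes1 in DP turnover library RP1141B (3.45 CPM). Hes5 had reads only in library RP1141A among DP turnover (0.368 CPM), and Heyl only in RP1138 among DP autonomy (1.36 CPM). Hey1 had reads in a single library of 3 groups, DN3 autonomy RP1135 (0.397 CPM), DN3 turnover RP1141A (1.26 CPM) and DP autonomy RP1136 (0.831 CPM). The autonomy effect on Nrarp differed between DP and DN3 cells by log2 -5.48, by the test of the difference itself.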

How the results depend on the processing

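The number of Notch genes called in DN3 autonomy against turnover was 5, and it was 3 with voom, 1 with A and B libraries summed, 2 in the fit of all 18 libraries, and 2 to 5 with each library left out. In DP cells it was 1, and 0 with A and B libraries summed, by edgeR. For the difference of the effects it was 1, and 0 with library totals as the only scaling, without the filter, or with A and B libraries summed, 2 with DESeq2, and 0 to 1 with each library left out. The library number as a replicate block gave 0 there. Same-numbered DN3 and DP libraries did not deviate together (correlation 0.001 to 0.052 in 8 pairs, -0.063 to 0.056 otherwise), and 3 DN3 libraries correlated best with their own number, so the numbers were not taken as a pairing. The counts for DP against DN3, 6 in turnover and 9 in autonomy, stayed within 1.5 times in every setting. Single values that changed sign belong to the difference of the effects: Notch1 (-0.0298 with the replicate block, -0.0704 to 0.26 with each library left out) and Hes1 (-0.36 to 1.87 with each library left out, except DP turnover RP1141B, without which it has no value). Of 822 values of single genes under other settings 744 kept their direction and side of the threshold. Genes called in all differ by over 1.5 times in DN3 cells (1602; 507 summed, 1006 in the 18-library fit, 811 without turnover library RP1140A, 953 and 1060 without autonomy libraries RP1137 and RP1138) and in DP cells (178; 16 summed, 736 with DESeq2, 434 with voom, 279 in the 18-library fit, and 33, 67, 59, 66 and 98 without turnover libraries RP1140B, RP1141A and RP1141B and autonomy libraries RP1133 and RP1135), for the difference (633; 1037 with DESeq2, 145 summed, 291 with the replicate block) and for DP over DN3 in turnover (4021; 2170 summed). With library totals as the only scaling the DN3 median moved to -0.20 and the calls to 433 higher and 1239 lower, against 703 and 899, and the DP over DN3 medians to 0.09 in turnover and 0.22 in autonomy. For the difference the calls with library totals were 430 higher and 250 lower, against 332 and 301. For DP over DN3 they were 2159 and 1888 in turnover, against 1820 and 2201, and 3382 and 2360 in autonomy, against 2736 and 2907. No paired analysis of autonomy against turnover was possible because the 2 conditions share no library numbers. Hes5, Heyl, Hey1 and Nrarp rest on few reads, and depth limits what can be said of them. The cause of these changes was not tested.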
